A study of Mus musculus with 12 samples.

Results

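The knockdown of Hnf4a alone in cultured mouse hepatocytes is described here. It rests on 6 of the 12 libraries of the series: 3 that received an siRNA against Hnf4a (siHnf4a) and 3 that received a control siRNA (siCon), with 1 library of each kind from each of 3 mice. All genes that passed a filter on low counts were compared, 15090 of the 55385 genes in the files. Hepatocytes, the main cell type of the liver, were plated on collagen and kept with siRNA for 48 h. All groups shared a culture medium with 10% serum, 2 mM glutamine, antibiotics, the glucocorticoid dexamethasone at 100 nM and 5% ITS, the usual name of a supplement of insulin, transferrin and selenium. The controls were thus not untreated liver. The remaining libraries received an siRNA against Cebpa (siCebpa) or both siRNAs (the double knockdown), 3 of each from the same mice. They are used below to look at the effect of the Hnf4a siRNA in other libraries. The sources used here do not give the mice's strain, sex and age, the siRNA sequences or the number of siRNAs per gene.

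HNF4A is a nuclear receptor that binds DNA as a homodimer at direct repeats of a short motif spaced by a single base, and it is active without an added hormone. In the liver it is known as a master regulator that keeps genes of secreted plasma proteins, lipoproteins, bile acids, drug metabolism and amino acid breakdown switched on. It stands in a circuit with other liver transcription factors. Loss of HNF4A in the mouse liver is known to give fatty liver and low plasma lipids.

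Totals per library ran from 23731068 to 25008195 estimated counts in siCon and from 23885931 to 24806320 in siHnf4a, and mitochondrially encoded genes took 2.34% to 4.04% of the counts over the 12 libraries. Markers were read first as a check of the label. The 10 hepatocyte markers summed to 12100 to 13300 transcripts-per-million (TPM) in siCon and to 12930 to 17960 in siHnf4a. Of them 2 passed as higher and 1 as lower, 30% called beside 14.5% of all genes, with a median log2 fold change of 0.38. The fit with mouse as a block had 5 higher and 1 lower, where 14.5% and 15.5% of all genes were. Of 14 markers of Kupffer cells, the macrophages of the liver, 11 could be tested and 0 passed, with 10 below 0 and a median log2 fold change of -0.99 (0 higher and 3 lower with mouse as a block, namely Clec4f, C1qc and Lyz2). Cd68, a lysosomal protein that is not limited to macrophages, took most of their sum of 117.3 to 355.2 TPM in siCon and 132.5 to 561.3 in siHnf4a. Without Cd68 the list summed to 17.4, 8.58 and 28.2 TPM in siCon and to 10.4, 3.86 and 12.7 in siHnf4a, lower in each mouse. Endothelial markers (0 of 12 passed, 2 as lower with mouse as a block) summed to 75.1 to 108.6 TPM in siCon and 77.3 to 102.7 in siHnf4a. Stellate cell and fibroblast markers (1 of 13 passed, Acta2, lower, and 4 as lower with mouse as a block) summed to 75.4 to 83.9 and 48.6 to 66.8 TPM. The 8 cholangiocyte markers summed to 90.4 to 307.9 TPM in siCon and 76.6 to 211.7 in siHnf4a, mostly Spp1, and Krt7 and Cftr were at or near 0. Of the 5 that could be tested, 2 passed as lower and 1 as higher, with a median of -1.01 (4 and 1 with mouse as a block). That is 60% called, beside 14.5% of all genes. Of the T and natural killer cell markers Trac, Trbc1, Cd4, Nkg7, Klrb1c and Gzma were at 0 in all 6 libraries, and B cell and neutrophil lists stayed at or under 6.04 TPM in sum. In RNA from whole cultures, fewer cells of a type and less RNA per cell cannot be told apart, and the part of these cells in the results below was not tested.

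Knockdown of Hnf4a moved about as many genes up as down. In edgeR's quasi-likelihood test, with Benjamini-Hochberg adjustment over the 15090 genes and a threshold of 0.05, 1093 genes were higher in siHnf4a (7.24% of those tested) and 1100 lower (7.29%), together 14.5%. At an unadjusted p under 0.05 there were 4336 genes. "Rose", "fell", "higher" and "lower" are used below for genes past this threshold only. Log2 fold changes stand with their standard errors, and single values are counts-per-million (CPM) in mouse 1, 2 and 3, in that order. The falls were the deeper ones: 405 genes fell and 249 rose at least 2-fold, and 144 fell and 67 rose at least 4-fold. The median log2 fold change was -0.74 for genes that fell and 0.58 for genes that rose, against 0.00017 for all genes tested. The sign was the same in all 3 mice for 2192 of the 2193 genes, and the siCon and siHnf4a values did not overlap for 1091 of the higher and 1098 of the lower genes. That was so for 33.7% of all genes tested. The test picked the called genes from the same libraries. Their shared sign, lack of overlap and shares of TPM below follow in part from that choice. In length-normalised values, the genes that fell made up 9.73%, 11.6% and 11.9% of all TPM in siCon and 5.65%, 5.94% and 5.92% in siHnf4a. The genes that rose went from 7.45%, 7.26% and 7.04% to 11.2%, 12.1% and 12.5%.

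**Figure D1:**
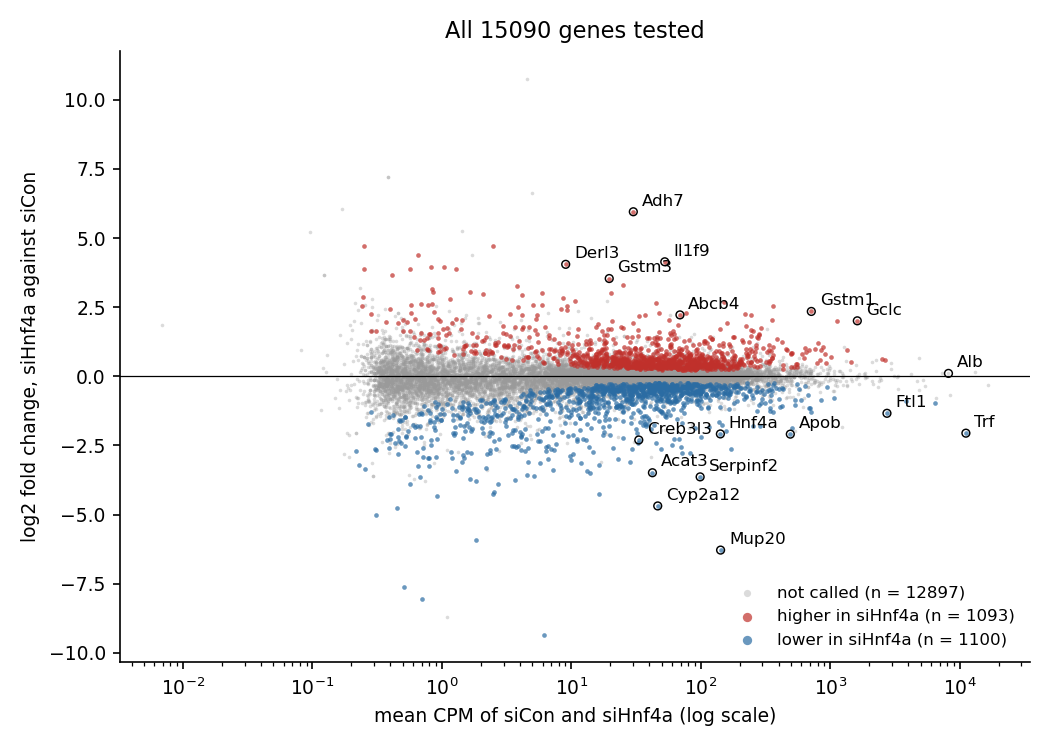
Log2 fold change of siHnf4a against siCon (vertical axis) against the mean CPM of both groups (horizontal log axis) for the 15090 genes tested, with genes past an adjusted p of 0.05 coloured. The deepest falls among well expressed genes, such as Mup20, Cyp2a12 and Serpinf2, go further from 0 than most rises, while Adh7 lies highest of the labelled genes and Alb lies near 0.

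With the mouse of origin added to the model as a block, 2187 genes were higher (14.5%) and 2346 were lower (15.5%). All 1093 and all 1100 genes called without it were among them. P values measure the spread between these libraries of 3 mice only. Without siCon replicate 2 the test called 530 genes higher and 590 lower, without siCon replicate 3 it called 576 and 628, without siHnf4a replicate 2 it called 587 and 550, and without siHnf4a replicate 3 it called 714 and 775. With any 1 of the 6 libraries removed, 444 of the higher and 482 of the lower genes still passed. Among the genes described below, the calls of Abcg5, Alg2, Apoc2, Apoe, Apom, Akr1d1, Bhmt, Cldn1, Cyp2c70, Cyp3a44, Foxa3, Fth1, G6pdx, Gm29408, Gys2, Hpx, Keap1, Mt1, Nfe2l2, Nr2f6, Nr5a2, Pdk2, Pkm, Ppp1r3c, Tcf7l2, Trdc and Ugt3a2 ended in 4 or more of 14 alternative analyses.

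Among liver transcription factors, the targeted gene and Creb3l3 fell far and many others moved little. Hnf4a (ENSMUSG00000017950.16, chr2:163506808-163572910, plus strand, GRCm38) stood at 144, 248 and 297 CPM in siCon and 56.7, 59.2 and 46.4 in siHnf4a, lower in every mouse and without overlap (-2.08 ± 0.28, adjusted p = 0.000953). Mouse 1 began lowest and fell least. Creb3l3, an endoplasmic reticulum-bound activator of triglyceride and fasting genes, went further, with 47.3, 52.6 and 65.8 CPM in siCon and 11.7, 12.6 and 9.33 in siHnf4a (-2.30 ± 0.22, adjusted p = 0.000106). Both fell more than 3-fold. Smaller falls included those of Foxa3, a forkhead factor (-0.68), Mlxipl, the carbohydrate response factor ChREBP (-0.57), Tcf7l2 of the Wnt pathway (-0.52), Nr2f6 (-0.46) and Stat5b, which carries the growth hormone signal (-0.34).

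In the other direction, Thrb, the main thyroid hormone receptor of hepatocytes, rose from 10.6, 9.39 and 13.1 CPM to 23.7, 26.4 and 27.7 (1.23 ± 0.20, adjusted p = 0.00293), and Klf15 from 9.48, 9.07 and 9.65 to 21, 18.6 and 16.7 (1.00 ± 0.16, adjusted p = 0.00251). Thrb was more than 2-fold above control in every mouse, and Klf15 in mouse 1 and 2. Smaller rises included those of Nr5a2, the bile acid regulator LRH-1 (0.65), Pparg (0.64), Klf9 (0.60), Ppard (0.54), Bcl6 (0.40) and Stat3 (0.34). In all, 9 of 61 listed factors rose and 8 fell, 27.9% against 14.5% of all genes tested (13 and 14 with mouse as a block). Foxa1 (-0.06), Foxa2 (0.18), Cebpa (0.15) and Prox1 (-0.01) did not pass, nor did the nuclear receptors Nr1h4, Ppara, Nr1i3 and Rxra (0.27, 0.23, -0.06 and 0.31), though Rxra was higher with mouse as a block.

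**Figure D2:**
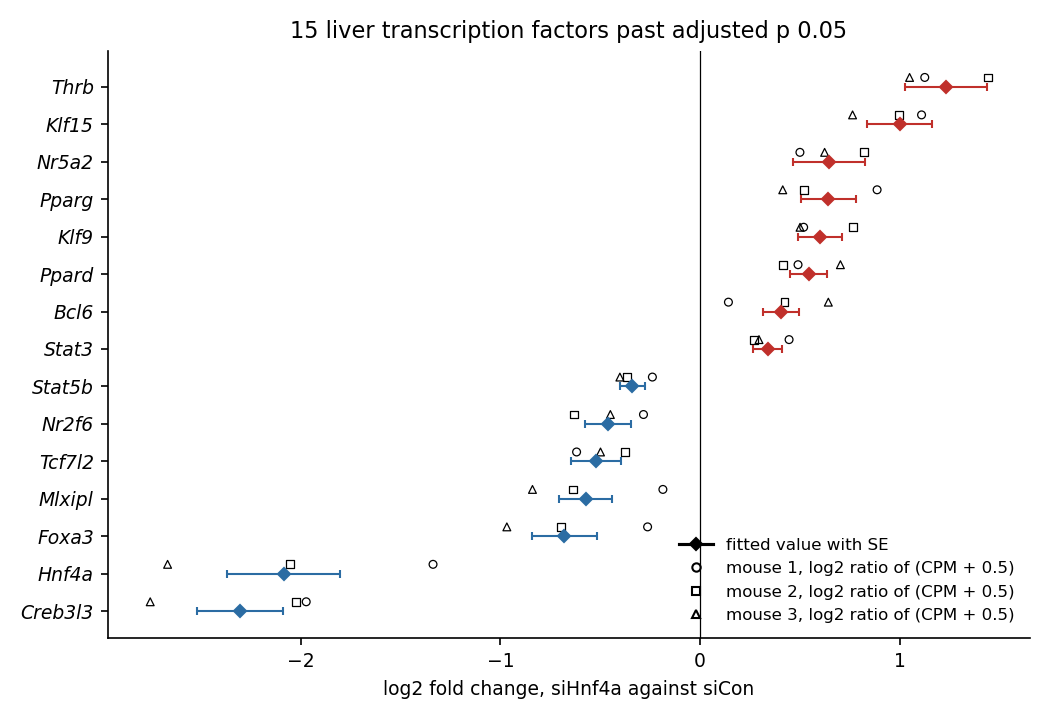
Log2 fold change of siHnf4a against siCon for 15 liver transcription factors past an adjusted p of 0.05, with the fitted value and its standard error (diamonds and bars) and the difference within each mouse (open symbols). Creb3l3 and Hnf4a lie below -1 in all 3 mice, and Thrb lies above 1 in all 3.

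Genes taught as direct targets of HNF4A fell in part, and not evenly. Of 40 such genes tested, 17 fell and 1 rose, with a list median of -0.94, against 7.29% and 7.24% of all genes (23 and 3 with mouse as a block). Apob, the structural protein of very-low-density lipoprotein, was among the abundant ones, at 858, 696 and 839 CPM in siCon and 211, 206 and 143 in siHnf4a (-2.09 ± 0.21, adjusted p = 0.000187). Mttp, which loads lipid onto it, fell as well (-1.26 ± 0.18, adjusted p = 0.00121). Apom, a carrier of sphingosine-1-phosphate on lipoproteins, had 8.33, 23.3 and 21.9 CPM in siCon and 4.69, 0.946 and 0.946 in siHnf4a (-3.02 ± 0.73, adjusted p = 0.0197) and mouse 1 above the others in siHnf4a. Both enzymes of bile acid conjugation fell: Slc27a5, which activates bile acids, stood at 13.4, 9.31 and 7.99 CPM in siCon and 1.59, 1.27 and 0.576 in siHnf4a (-3.15 ± 0.62, adjusted p = 0.00738) and Baat, which joins them to taurine, at 29, 21.4 and 13.8 CPM in siCon and 2.9, 3.37 and 0.987 in siHnf4a (-3.14 ± 0.53, adjusted p = 0.00336). Abcc6, the transporter mutated in pseudoxanthoma elasticum (-2.61), Otc of the urea cycle (-1.85) and Gys2, the glycogen synthase of liver (-1.63), fell with them. The 1 that rose was Abcg5, a sterol exporter into bile (1.77 ± 0.50, adjusted p = 0.037).

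Other textbook targets did not pass. Apoa1, the main protein of high-density lipoprotein, was at 631, 719 and 569.9 CPM in siCon and 646, 676 and 357 in siHnf4a, with overlapping groups (-0.19 ± 0.30, adjusted p = 0.721). Ttr, the thyroxine carrier, was at -0.15, Apoa2 at -0.07, Slc10a1, the bile acid importer, at -0.01 and Pck1 of gluconeogenesis at -0.25. F7, F9, Pklr, Apoc3 and Vtn were lower with mouse as a block only (-1.06, -0.92, -1.11, -0.45 and -1.17 without it). Alb, whose product is serum albumin, did not differ beyond the spread between libraries: it was at 9787, 7754 and 6174 CPM in siCon and 10800, 9500 and 5202 in siHnf4a (0.10 ± 0.38, adjusted p = 0.893; 95% interval -0.73 to 0.94).

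The deepest fall among genes of at least 10 CPM was that of Mup20 (ENSMUSG00000078672.2, chr4:62050234-62054158, minus strand), the male urinary pheromone darcin. It stood at 159.9, 353 and 329.9 CPM in siCon and 1.39, 7.36 and 2.06 in siHnf4a (-6.29 ± 0.78, adjusted p = 0.000574). It was lower in all 3 mice, by log2 differences of -6.41, -5.49 and -7.01 on the log2 scale of CPM + 0.5. Of 10 Mup genes tested 3 fell, the others being Mup3 (-1.83) and the low Mup11 (-3.88), while the remaining 7 lay between -0.50 and 0.68. This is 30% called, beside 14.5% of all genes. The fit with mouse as a block had 3 lower and 3 higher, where 15.5% and 14.5% of all genes were. Mup genes are near-identical copies between which reads can be split wrongly, so single members are uncertain. Cyp2a12, a cytochrome P450 that hydroxylates bile acids, had 98.5, 116 and 54.7 CPM in siCon and 3.78, 5.26 and 1.36 in siHnf4a (-4.69 ± 0.52, adjusted p = 0.000326). Serpinf2 (ENSMUSG00000038224.12, chr11:75431732-75439591, minus strand), which makes the plasmin inhibitor alpha2-antiplasmin, had 126, 202 and 222 CPM in siCon and 15.6, 16.4 and 12.2 in siHnf4a (-3.64 ± 0.30, adjusted p = 4.19e-05).

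The 15 deepest falls also held Acat3, a cytosolic acetyl-CoA acetyltransferase, which was at 75.2, 65.8 and 92.3 CPM in siCon and 6.76, 5.72 and 8.3 in siHnf4a, with a like fall in every mouse (-3.49 ± 0.24, adjusted p = 2.73e-05). It overlaps Tcp1 on the other strand, which was more abundant and did not pass (0.17). Smpd3, a neutral sphingomyelinase (-4.24 ± 0.45, adjusted p = 0.000215), Proz, a cofactor of coagulation control (-3.44 ± 0.48, adjusted p = 0.0012), Pipox, a peroxisomal oxidase of the lysine pathway (-2.98 ± 0.25, adjusted p = 4.19e-05), and Nox4, an NADPH oxidase (-2.82 ± 0.49, adjusted p = 0.00386), fell as well. Smpd3 overlaps Prmt7 on the other strand, which had more counts (a mean of 1597 against 402) and did not pass (0.09). Pigt, a subunit of the transamidase that attaches GPI anchors, stood at 129, 167 and 136 CPM in siCon and 23.6, 20.8 and 18.8 in siHnf4a, with a small spread (-2.77 ± 0.17, adjusted p = 1.67e-05). Mettl7b, a thiol methyltransferase, fell by 3.51 while Itga7, a laminin receptor chain on the opposite strand of the same place, rose by 2.29, and the strand setting of the counts is not given. The rule on large falls also took Gm30692 (-3.21), Cyp3a44 (-3.10) and Apoc2, a cofactor of lipoprotein lipase (-2.76).

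**Figure D3:**
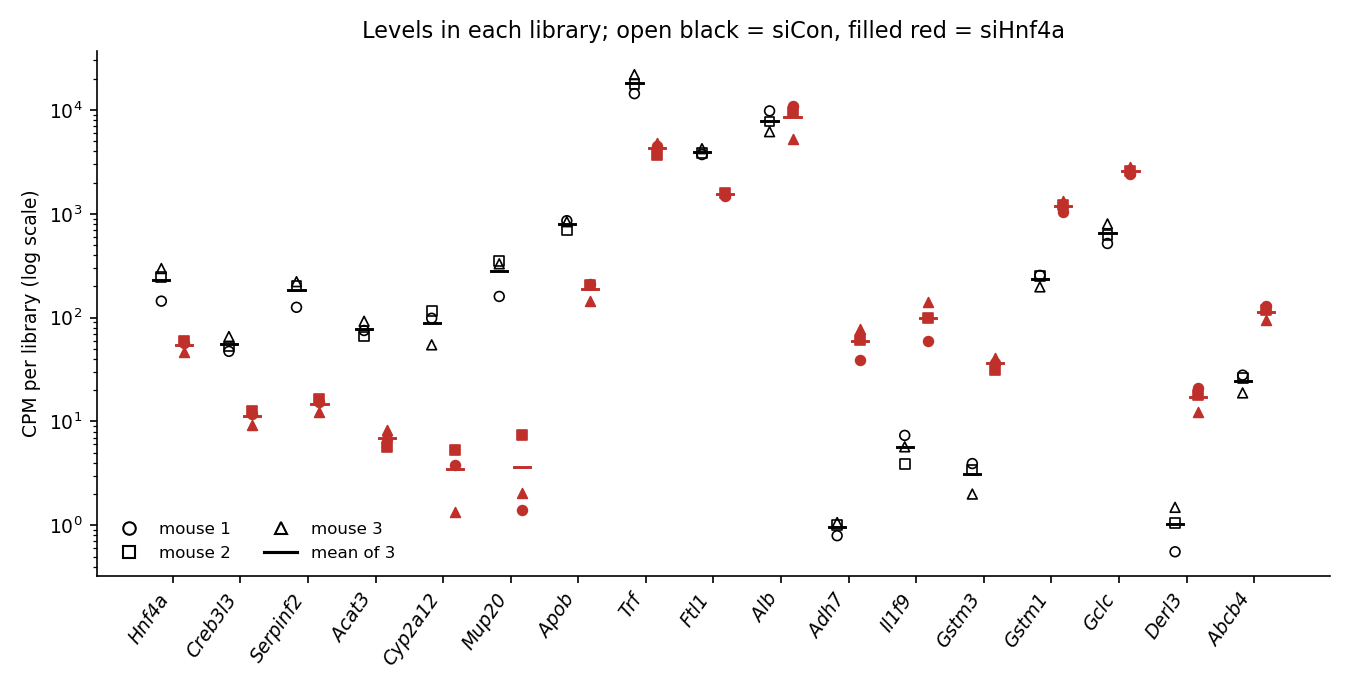
CPM on a log axis for 17 genes in each siCon library (open black symbols) and each siHnf4a library (filled red symbols), with 1 symbol shape per mouse and a bar for each mean. Hnf4a and the next 8 genes lie lower in siHnf4a without overlap, Alb overlaps, and the 7 genes on the right lie higher without overlap.

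Of the 10 genes with the highest TPM in siCon 3 passed, all lower, beside 14.5% of all genes: Trf, Hpx and Gm29408, annotated as a long non-coding RNA (-0.66 ± 0.17, adjusted p = 0.0233). Trf (ENSMUSG00000032554.15, chr9:103204001-103230444, minus strand), which makes the iron carrier transferrin, had the highest mean TPM in siCon (16870) of any protein-coding gene that fell. Its values were 14360, 17860 and 21900 CPM in siCon and 4517, 3672 and 4817 in siHnf4a (-2.06 ± 0.23, adjusted p = 0.000332). Ftl1, the light chain of the iron store ferritin, went the same way, from 3718, 3856 and 4237 to 1491, 1589 and 1592 CPM (-1.34 ± 0.14, adjusted p = 0.000193), while its heavy chain Fth1 rose (0.62 ± 0.17, adjusted p = 0.0302). Hpx, which scavenges heme in plasma, fell (-0.96 ± 0.27, adjusted p = 0.0354). Clu, Gc, Lcn2 and Eef1a1 did not pass (-0.67, -0.80, -0.12 and 0.11). With mouse as a block Clu and Gc were lower, and the pseudogene Gm29216 was higher (0.60 without it).

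Lipoprotein genes held more falls than rises, 10 against 1 of 28 tested, or 39.3% called beside 14.5% of all genes (15 and 4 with mouse as a block). Beyond the genes above they included Cideb, which lipidates nascent particles (-2.73 ± 0.27, adjusted p = 0.000148), Tm6sf2, which acts in their secretion (-2.10 ± 0.18, adjusted p = 4.54e-05), Apon (-1.45), Apoc4 (-1.33) and Apoe (-0.88). Angptl8 was the 1 that rose (0.68). Cideb overlaps Nop9 on the other strand.

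Coagulation genes moved both ways, with 5 of 31 lower and 3 higher, 25.8% called beside 14.5% of all genes (12 and 7 with mouse as a block, where 15.5% of all genes were lower and 14.5% higher). F12, the contact factor, had 161, 125 and 74.5 CPM in siCon and 32.3, 17.9 and 10.7 in siHnf4a (-2.56 ± 0.63, adjusted p = 0.021), and F13b (-2.54) and F5 (-1.72) also fell. Of the fibrinogen chains, Fga went from 514, 476 and 562 to 979, 1249 and 839 CPM (0.98 ± 0.18, adjusted p = 0.00538) and Fgb from 783, 838 and 1169 to 1598, 2028 and 1725 (0.94 ± 0.22, adjusted p = 0.0184), with Fgg at 0.84 and past the threshold with the block only. Cpb2, which slows fibrinolysis, rose too (1.67 ± 0.20, adjusted p = 0.000472). Complement genes had 4 of 24 lower and 0 higher, 16.7% beside 14.5% of all genes, so this share is near the background (14 lower with mouse as a block). They were Cfb (-1.16 ± 0.24, adjusted p = 0.00947), Mbl2 (-1.15), Hc, which is component C5 (-1.07), and C2 (-0.88). C1qa, C1qb and C1qc, which macrophages make, are in this list too and are among the Kupffer markers given above. Of 42 plasma carriers and protease inhibitors 11.9% were called (4 lower and 1 higher, or 16 and 5 with mouse as a block). Of 45 acute phase and inflammation genes 13.3% were called (2 lower and 4 higher, or 6 and 6 with mouse as a block).

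Cytochrome P450 and other phase I enzymes split into falls and rises. Of 66 tested 12 fell and 15 rose, 40.9% called beside 14.5% of all genes. With mouse as a block 18 were lower and 23 higher, where 15.5% and 14.5% of all genes were. The falls were largely of the Cyp2a, Cyp2c, Cyp2d and Cyp3a families: Cyp2d9 (-3.55 ± 0.75, adjusted p = 0.0105), Cyp2d26 (-3.40 ± 0.53, adjusted p = 0.00211), Cyp3a25 (-3.23), Cyp2c67 (-2.80), Cyp2c29 (-1.94) and Cyp2c70, which makes muricholic acids (-1.72). Many of these families hold close copies, which makes single members uncertain. On the other side stood Cyp1a1 at 0.992, 0.766 and 1.1 CPM in siCon and 7.64, 6.5 and 7.98 in siHnf4a (2.94 ± 0.35, adjusted p = 0.000472) and Cyp1a2 at 1.07, 1.29 and 1.53 CPM in siCon and 13.9, 9.01 and 8.63 in siHnf4a (3.02 ± 0.40, adjusted p = 0.000868), the enzymes induced through the aryl hydrocarbon receptor. Ahr, the receptor itself, rose from 34.7, 29.9 and 43.7 to 74, 71.9 and 94.1 CPM (1.15 ± 0.29, adjusted p = 0.0224), while Tiparp, another of its targets, was at 0.15 and did not pass. Cyp2a4, close to Cyp2a5 in sequence, went from 140.3, 143 and 131 to 553, 572 and 575 CPM (2.04 ± 0.13, adjusted p = 1.67e-05). The 5 genes from Cyp1a1 to Cyp2a4 were picked after their values were seen.

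Bile acid genes had 4 of 29 lower and 4 higher, 27.6% called beside 14.5% of all genes. With mouse as a block 5 were lower, near the 15.5% of all genes, and 12 higher, where 14.5% of all genes were. Abcb4, the phosphatidylcholine floppase of bile, rose from 27.9, 26.4 and 18.8 to 128, 119 and 93.8 CPM (2.22 ± 0.30, adjusted p = 0.000926). Akr1d1, a reductase of bile acid synthesis, rose from a low level (2.18 ± 0.57, adjusted p = 0.0269), and Acox2 (0.84) and Abcc3 (0.81) also rose. The 4 falls were those of Cyp2a12, Slc27a5, Baat and Cyp2c70.

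Promoters were searched for letters that HNF4A is known to bind. Each promoter ran from 250 bases before to 50 after a start site (RefSeq, GRCm38.p6), and 13736 promoters matched 10744 of the genes tested. The words CAAAGTCCA and CAAAGGTCA were sought on both strands. One or the other stood in 0.95% of all 32851 promoters, in 0.894% of those of genes not called, in 0.543% of those of genes that rose and in 1.8% (20 of 1110) of those of genes that fell. The share was 4.28% (16 of 374) for genes that fell at least 2-fold and 8.03% (11 of 137) for those that fell at least 4-fold. For genes that rose at least 2-fold and at least 4-fold it was 0.87% (2 of 230) and 1.41% (1 of 71). In the list of textbook HNF4A targets it was 5.56% (2 of 36). The 11 promoters with a word among genes that fell at least 4-fold belong to 9 genes. The windows below show 6 of these 9, with the word in capitals, 5′ to 3′ on the strand of the gene. They were chosen after the values were seen, to show where the word lies.
Pipox (chr11:77893839-77893867, minus strand): ctagtttagcTGGACTTTGcctccctcct
Aadat (chr8:60506032-60506080, plus strand): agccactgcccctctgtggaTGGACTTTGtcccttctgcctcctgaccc
Aspdh (chr7:44465363-44465411, plus strand): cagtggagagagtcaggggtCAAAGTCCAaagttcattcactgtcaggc
Muc13 (chr16:33794283-33794331, plus strand): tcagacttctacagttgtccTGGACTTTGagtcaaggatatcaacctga
Cyp2c67 (chr19:39649139-39649187, minus strand): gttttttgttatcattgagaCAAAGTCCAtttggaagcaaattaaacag
Cyp3a25 (chr5:146009769-146009817, minus strand): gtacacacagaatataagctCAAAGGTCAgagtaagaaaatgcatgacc
The word begins 16 bases after the start in Pipox, and 72, 52, 186, 125 and 179 bases before it in Aadat, Aspdh, Muc13, Cyp2c67 and Cyp3a25. Pipox stood at 37.9, 38.7 and 46.4 CPM in siCon and 6.36, 4.53 and 4.69 in siHnf4a. Aadat, an aminotransferase of lysine and kynurenine breakdown, was at 3.57, 3.31 and 3.32 CPM in siCon and 0.159, 0.494 and 0.0822 in siHnf4a (-3.77 ± 0.53, adjusted p = 0.00118). Muc13, a membrane mucin, was at 0.833, 1.57 and 1.15 CPM in siCon and 0.159, 0.165 and 0.0411 in siHnf4a (-3.23 ± 0.54, adjusted p = 0.00314). All 3 were lower in every mouse without overlap, and the last 2 at low levels throughout. Gimd1, 1 of the 3 not shown, had 0.674, 0.484 and 1.91 CPM in siCon and 0 in each siHnf4a library. A match is a description of letters and not a binding site, and most genes that fell hold neither word in this window.

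Genes of the NRF2 response were the list with the largest share of rises. NRF2 (encoded by Nfe2l2) is the transcription factor that switches on glutathione synthesis and thiol redox enzymes. Of 35 tested 24 rose and 2 fell, 74.3% called beside 14.5% of all genes, with a median of 0.62 (26 and 4 with mouse as a block). Gclc (ENSMUSG00000032350.9, chr9:77754535-77794485, plus strand), the catalytic subunit of the enzyme that starts glutathione synthesis, went from 517, 621 and 799 to 2396, 2578 and 2814 CPM (2.01 ± 0.17, adjusted p = 4.19e-05), and Gclm, its regulatory subunit, rose by 1.00. Srxn1, which repairs peroxiredoxins, went from 518, 432 and 415 to 1554, 1855 and 1997 (1.99 ± 0.14, adjusted p = 2.85e-05). Nqo1, a quinone reductase, had 11.3, 10.2 and 12.7 CPM in siCon and 35.5, 34.5 and 45.6 in siHnf4a (1.76 ± 0.14, adjusted p = 4.03e-05). In these 3 genes the lowest siHnf4a library lay more than 2-fold above the highest siCon library. Cbr3, a carbonyl reductase (2.65 ± 0.20, adjusted p = 4.01e-05), Gpx2 (3.04 ± 0.57, adjusted p = 0.00572), Blvrb (1.76), Slc7a11, the cystine importer (1.71), and G6pdx, which supplies NADPH (1.39), rose as well. Gpx2 is low (a mean of 40.7 counts) and overlaps Fntb on the other strand, which had 512 and did not pass (-0.17). Nfe2l2 itself rose by a smaller step, from 842, 709.7 and 763 to 1022, 1110 and 1135 CPM (0.50 ± 0.12, adjusted p = 0.0191), as did Keap1, which holds it in check (0.40). The 2 that fell were Ftl1 and Hmox1, the heme oxygenase, at 243, 312 and 277 CPM in siCon and 188, 167 and 157 in siHnf4a (-0.70 ± 0.13, adjusted p = 0.00521). The core of the antioxidant response element, TGACNNNGC on either strand, stood in 12.4% of all promoters and in 26.8% (11 of 41) of those of this list. Over all genes tested its share was 14.4%, with 15.6% for genes that rose, 12.7% for those that rose at least 4-fold, 13.9% for genes that fell and 14.3% for genes not called. The list is made of known NRF2 targets, so its share describes the list and not the knockdown.

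Conjugation enzymes also rose more often than they fell, with 16 of 44 higher and 3 lower, 43.2% called beside 14.5% of all genes. With mouse as a block 22 were higher and 6 lower, where 14.5% and 15.5% of all genes were. Glutathione S-transferases made up much of the rises. Gstm1 stood at 255, 253 and 198 CPM in siCon and 1051, 1204 and 1331 in siHnf4a (2.35 ± 0.15, adjusted p = 2.15e-05), Gstm3 at 3.93, 3.39 and 2 CPM in siCon and 36.6, 31.4 and 40.5 in siHnf4a (3.54 ± 0.29, adjusted p = 4.19e-05), and Gsta1 and Gsta2 rose by 2.56 and 2.68. A pair of blocks of neighbouring genes rose as a run: Gstm3, Gstm2, Gstm1 and Gstm4 (chr3:107963696-108044894, median 2.08), and Gsta4, Gsta1, Gm3776, Gm10639 and Gsta2 (chr9:78182774-78355788, median 2.56). Members of each block are close copies, so how the reads were shared among them is uncertain. Ugt1a6a, a glucuronosyltransferase that shares exons with its Ugt1a neighbours, had 21.5, 25.4 and 32.1 CPM in siCon and 122, 127 and 133 in siHnf4a (2.28 ± 0.15, adjusted p = 2.55e-05). The falls were those of Nnmt, the nicotinamide methyltransferase (-1.56), Ugt3a2 (-1.19) and Tpmt (-1.15).

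Some of the largest rises began from a low control level. Adh7 (ENSMUSG00000055301.8, chr3:138217760-138233382, plus strand), an alcohol dehydrogenase that oxidises retinol and is known from the stomach rather than the liver, had 0.793, 1.01 and 1.06 CPM in siCon and 38.8, 60.7 and 78.4 in siHnf4a (5.95 ± 0.46, adjusted p = 4.01e-05). Il1f9, which encodes the cytokine interleukin-36 gamma, stood at 7.34, 3.91 and 5.7 CPM in siCon and 59, 99.8 and 141 in siHnf4a (4.14 ± 0.38, adjusted p = 9.77e-05). Ly6d, a surface protein, went from 4.13, 2.06 and 2.3 to 13.3, 17.9 and 24.3 CPM (2.71 ± 0.51, adjusted p = 0.00627). The 3 genes were higher in each mouse without overlap. Trdc, the constant part of a T cell receptor chain, had 1.39, 4.52 and 7.48 CPM in siCon and 8.79, 38.5 and 60.3 in siHnf4a (3.01 ± 0.90, adjusted p = 0.0477), and mouse 1 was lowest in both groups. Of the other markers of T and natural killer cells only Cd3e could be tested (-0.23, not past the threshold).

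Genes of endoplasmic reticulum stress that passed were all higher. Of 41 genes of chaperones and of the degradation of misfolded proteins (ERAD), 15 rose and 0 fell, with a median of 0.27. The share called was 36.6%, beside 14.5% of all genes. With mouse as a block 24 were higher and 0 lower, where 14.5% and 15.5% of all genes were. Derl3 (ENSMUSG00000009092.5, chr10:75893413-75895941, plus strand), a channel component of ERAD, stood at 0.555, 1.05 and 1.49 CPM in siCon and 21.1, 17.9 and 12.2 in siHnf4a (4.05 ± 0.33, adjusted p = 4.19e-05). Creld2 had 15.4, 15.4 and 17.6 CPM in siCon and 44.9, 42.3 and 42.3 in siHnf4a (1.42 ± 0.09, adjusted p = 1.67e-05), Dnajb9 had 38.9, 34.2 and 33.8 CPM in siCon and 95.4, 104 and 78.3 in siHnf4a (1.38 ± 0.11, adjusted p = 4.19e-05), and Hspa5, the chaperone BiP, had 705, 649 and 636 CPM in siCon and 1026, 1072 and 898 in siHnf4a (0.59 ± 0.10, adjusted p = 0.00327). The step was large for Derl3, from a level near 1 CPM, and under 3-fold for the other 3. Hsp90b1 (0.96), Pdia4 (1.12), Sdf2l1 (1.34), Herpud1 (0.68) and the sensor Ern1 (0.70) rose too. Genes of the translation arm of the response did not pass: Atf4 was at 0.06, Ddit3 at 0.31, Trib3 at -0.43, Asns at 0.04 and Chac1 at 0.15 (Ddit3 was higher with mouse as a block). Xbp1 was at 0.01, measured over all its transcripts.

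The endoplasmic reticulum stress response element (ERSE), which the factors ATF6 and NF-Y are known to bind, was sought by its standard pattern on both strands. It stood in 0.119% of all promoters and in 24.3% (9 of 37) of those of this list. It was found in 0.633% (7 of 1105) of the promoters of genes that rose and in 0 of 1110 of genes that fell. The list is made of genes known for this response, so the share describes the list and not the knockdown. The windows show the element in capitals for 5 list members that rose, on the strand of the gene, chosen after the values were seen.
Derl3 (chr10:75893222-75893280, plus strand): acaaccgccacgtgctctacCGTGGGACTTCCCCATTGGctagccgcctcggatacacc
Creld2 (chr15:88819500-88819558, plus strand): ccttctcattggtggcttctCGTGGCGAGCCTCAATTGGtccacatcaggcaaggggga
Hsp90b1 (chr10:86705513-86705571, minus strand): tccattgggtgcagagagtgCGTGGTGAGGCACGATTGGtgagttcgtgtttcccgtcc
Hspa5 (chr2:34772005-34772063, plus strand): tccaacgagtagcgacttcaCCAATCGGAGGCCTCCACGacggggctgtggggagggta
Pdia6 (chr12:17266471-17266529, plus strand): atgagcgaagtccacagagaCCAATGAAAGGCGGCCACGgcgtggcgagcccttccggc
The element begins 156, 126, 107, 65 and 98 bases before the start in this order. Canx, Calr, Dnajc3 and Syvn1 hold it as well and did not pass (0.27, 0.31, 0.19 and 0.24), the first 2 being higher with mouse as a block.

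**Figure D4:**
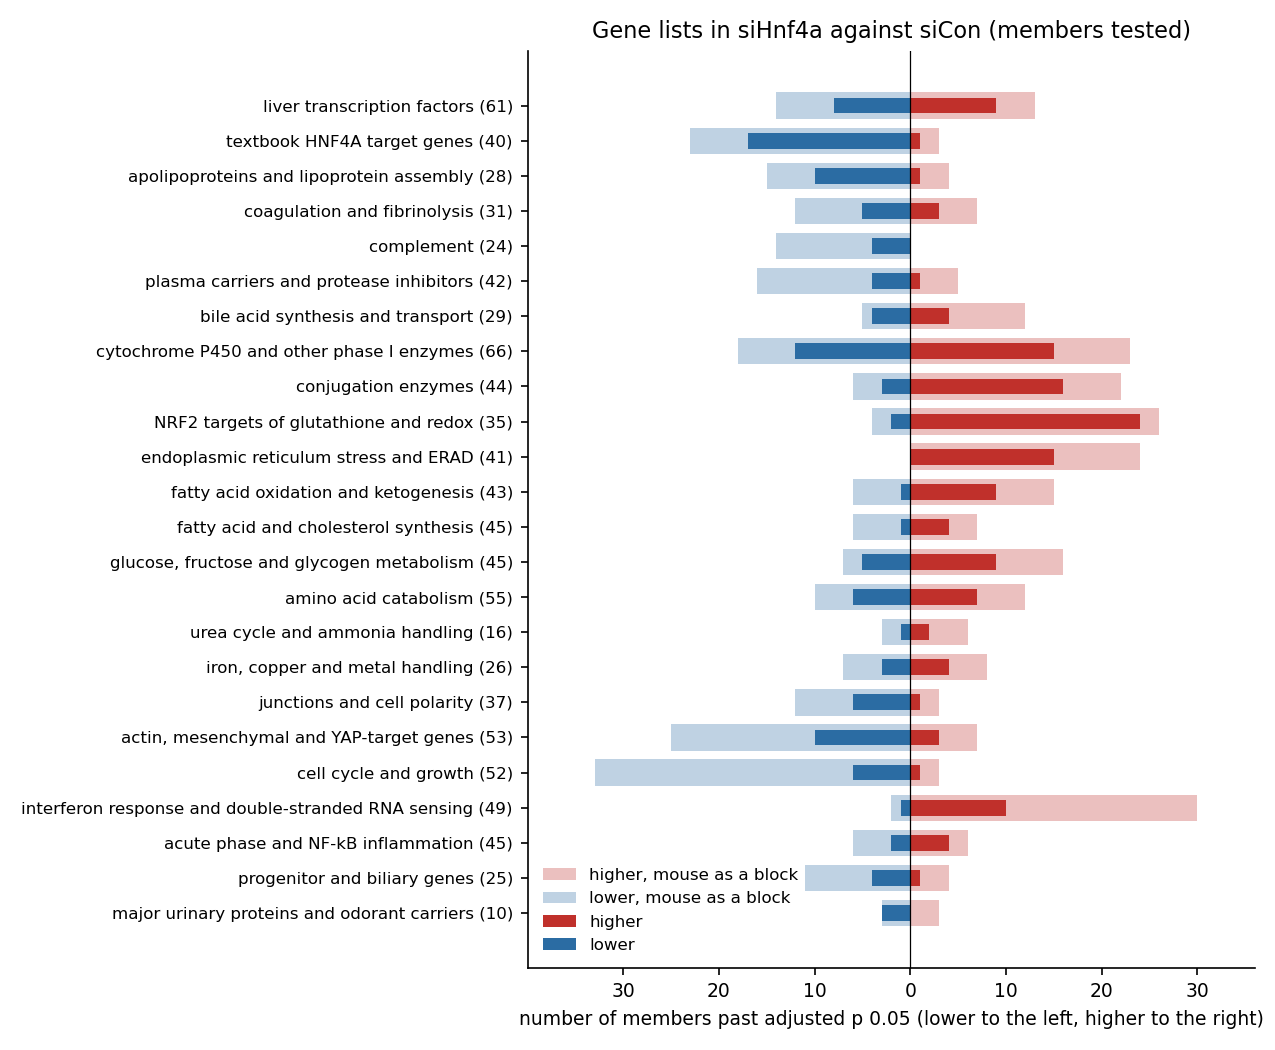
Number of members of 24 gene lists that were lower (blue, to the left) or higher (red, to the right) in siHnf4a than in siCon, with members tested in brackets; dark bars are without and pale bars with mouse as a block. The bars are longer to the right for NRF2 targets (24 higher, 2 lower) and endoplasmic reticulum stress genes (15 and 0), and longer to the left for HNF4A targets (1 and 17) and lipoprotein genes (1 and 10).

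Metabolic lists were mixed, to be read beside 14.5% of all genes called and, with mouse as a block, 14.5% higher and 15.5% lower. Fatty acid oxidation had 9 of 43 higher and 1 lower, 23.3% called (15 and 6 with mouse as a block): Acadm, the medium-chain dehydrogenase, went from 72.5, 57.5 and 58.8 to 147, 132 and 98.1 CPM (1.00 ± 0.20, adjusted p = 0.00863) and Acat1 of ketone metabolism rose by 0.98, while Vnn1, a pantetheinase, fell (-1.38 ± 0.16, adjusted p = 0.000369). Cpt1a, the gate of mitochondrial oxidation, did not pass (-0.35) and was lower with the block. Glucose and fructose genes had 9 of 45 higher and 5 lower, 31.1% called (16 and 7 with the block). Tkfc, the triokinase of fructose breakdown, fell from 142, 184 and 172 to 36.1, 35.9 and 37.3 CPM (-2.19 ± 0.16, adjusted p = 3.58e-05). It overlaps the abundant Ddb1 on the other strand (-0.58, lower with the block only). Ppp1r3c, a glycogen-targeting subunit (2.55), Pfkfb1 (1.72), Pdk2 (1.14) and the non-hepatic isozymes Pkm (0.93) and Aldoa (0.69) rose. Amino acid genes had 7 of 55 higher and 6 lower, 23.6% called (12 and 10 with the block): Uroc1 of histidine breakdown (-3.75) and Kmo of the kynurenine pathway (-2.62) fell, while Bhmt, which remethylates homocysteine, had 76, 107 and 46.4 CPM in siCon and 219.5, 606 and 261 in siHnf4a (2.24 ± 0.58, adjusted p = 0.0267). In the urea cycle Ass1 rose (0.84 ± 0.16, adjusted p = 0.00572) and Otc fell (-1.85 ± 0.36, adjusted p = 0.0072), and Cps1 and Arg1 were at 1.71 and 2.21 with a wide spread between mice and passed only with the block. Lipid and cholesterol synthesis had 11.1% of 45 genes called, near the background, among them Acss2 (1.23) and Elovl6 (1.16). With the block 7 were higher and 6 lower. Kmo, Pfkfb1 and Acss2 overlap genes of the other strand with more counts, namely Fh1 and Apex2, which did not pass (0.10 and -0.13), and Gss, which rose (1.22). Of 26 genes of metal handling 4 rose and 3 fell, 26.9% called (8 and 7 with the block), and the metallothioneins Mt1 and Mt2 were higher (1.00 and 1.19).

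Lists of cell shape and junctions held more falls than rises. Of 37 junction genes 6 fell and 1 rose, 18.9% called and so not far from the 14.5% of all genes (12 and 3 with mouse as a block), with Cldn2 at 73, 104 and 131 CPM in siCon and 19.1, 18.2 and 17.8 in siHnf4a (-2.48 ± 0.34, adjusted p = 0.00107) against Cldn1, another claudin of tight junctions, at 18.5, 15.1 and 13 CPM in siCon and 67, 48 and 35.2 in siHnf4a (1.69 ± 0.46, adjusted p = 0.0332). Of 53 genes of actin, mesenchyme and the YAP pathway 10 fell and 3 rose, 24.5% called (25 and 7 with the block). Ccn2, the matrix protein CTGF, had 138, 332 and 412 CPM in siCon and 50, 50.5 and 40.7 in siHnf4a (-2.64 ± 0.46, adjusted p = 0.0041), Amotl2 fell (-1.81), and Vcl, which anchors actin, rose by 1.03. Acta2, in this list and among the stellate cell markers, fell by 0.90, beside the marker sums given above. Progenitor and biliary genes had 4 of 25 lower and 1 higher, also not far from the share of all genes (11 and 4 with the block), with Sox4 from 392, 496 and 459 to 106, 138 and 139 CPM (-1.81 ± 0.18, adjusted p = 0.00016) and Krt19 from 3.97, 11.5 and 17.6 to 2.74, 1.07 and 1.27 (-2.69 ± 0.61, adjusted p = 0.0145). Sox9 and Krt19 are also among the cholangiocyte markers.

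The block by mouse added the most calls in 2 lists. Cell cycle genes had 6 of 52 lower and 1 higher, 13.5% called and so near the 14.5% of all genes, but 33 lower and 3 higher once mouse was a block, where 15.5% of all genes were lower. Mki67, a marker of dividing cells, stood at 7.06, 37.2 and 39.2 CPM in siCon and 2.82, 15.8 and 20.1 in siHnf4a: mouse 1 was far below the others in both groups, and each mouse was lower in siHnf4a (-1.11 ± 1.00, adjusted p = 0.512; adjusted p = 0.00221 with the block). Ccnb1, a mitotic cyclin, had 2.42, 9.8 and 11.3 CPM in siCon and 0.358, 2.22 and 2.84 in siHnf4a (-2.12; adjusted p = 3.06e-05 with the block). Interferon genes had 10 of 49 higher and 1 lower, 22.45% called beside 14.5% of all genes. The block gave 30 higher and 2 lower, where 14.5% and 15.5% of all genes were. Igtp, an interferon-induced GTPase, rose from 105, 173 and 169 to 315, 360.4 and 522 CPM (1.42 ± 0.22, adjusted p = 0.00184), Oasl2 was at 12.1, 32.9 and 27.1 CPM in siCon and 33.8, 74.5 and 90.2 in siHnf4a (1.46; adjusted p = 0.0543, or 0.000768 with the block), and Irgm1 fell (-1.87 ± 0.31, adjusted p = 0.00277). Ifih1 and Ddx58, the sensors of double-stranded RNA, were at 0.19 and 0.12 and did not pass. Kupffer cells also carry interferon genes, and the part of the Kupffer marker values given above was not tested.

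The double knockdown set against siCebpa gives the effect of the same siRNA in 6 libraries that the comparison above did not use, though from the same mice. Hnf4a fell there too, from 191, 149 and 293 CPM in siCebpa to 40.1, 33.5 and 34.1 (-2.56 ± 0.29, adjusted p = 0.000398). In all 1959 genes passed, 13.0% of those tested (983 higher and 976 lower; 1964 and 2157 with mouse as a block). In limma on TPM the split was 1300 higher and 371 lower, and the median of all genes there was 0.0946 in place of -0.02. Without siCebpa replicate 3 edgeR called 549 and 519 genes, without siCebpa replicate 2 it called 649 and 551, and without double knockdown replicate 2 or 3 it called 619 and 434 or 647 and 471. Of the genes higher in siHnf4a, 1027 of 1093 (94.0%) had the same sign and 514 passed, which is 47.0% of these genes and 52.3% of the genes higher in the double knockdown. Of the genes lower in siHnf4a, 1053 of 1100 (95.7%) had the same sign and 569 passed, 51.7% of these genes and 58.3% of those lower in the double knockdown. In all, 1 gene passed in opposite directions. Among the 12897 genes not called in siHnf4a the sign was shared by 64.5%. Across the 2193 called genes, which are not independent of each other, the 2 sets of log2 fold changes had r = 0.89. Over all 15090 genes r was 0.61.

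The values of the lists in the 2 settings stand side by side here. Of all 15090 genes, 14.5% passed in siHnf4a against siCon, and 14.5% were higher and 15.5% lower with mouse as a block. In the double knockdown against siCebpa 13.0% of all genes passed, with 983 higher and 976 lower (1964 and 2157 with the block). For HNF4A targets the median in siHnf4a against siCon was -0.94, with 17 lower (23 with mouse as a block). In the double knockdown against siCebpa it was -1.31, with 18 of 40 lower and 0 higher (30 and 1 with the block). Serpinf2 (-4.33), Mup20 (-6.58), Acat3 (-3.67), Trf (-1.98) and Creb3l3 (-2.26) fell again here. Apoa1 and Ttr, which had not passed in siHnf4a, fell here (-1.40 ± 0.30 and -1.21 ± 0.29, adjusted p = 0.0134 and 0.0217), but the difference between the 2 settings did not pass for either (adjusted p = 0.369 and 0.418). For NRF2 targets the median was 0.28, with 8 higher and 3 lower (16 and 3 with mouse as a block, beside 26 and 4 in siHnf4a). For endoplasmic reticulum stress genes it was 0.13, with 9 higher and 0 lower (13 and 0 with the block, beside 24 and 0). Gclc rose by 0.83, Gstm1 by 1.07 and Derl3 by 1.12, next to 2.01, 2.35 and 4.05 in siHnf4a. Without the block, the difference of the effects passed for Derl3 only (adjusted p = 0.107, 0.0568 and 0.0313). With mouse as a block it passed for each of these genes (adjusted p = 0.0068, 0.0108 and 0.00512). In siCebpa alone Gclc was at 1453, 1323 and 1708 CPM and Derl3 at 10.4, 11.3 and 10, in each mouse above siCon.

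**Figure D5:**
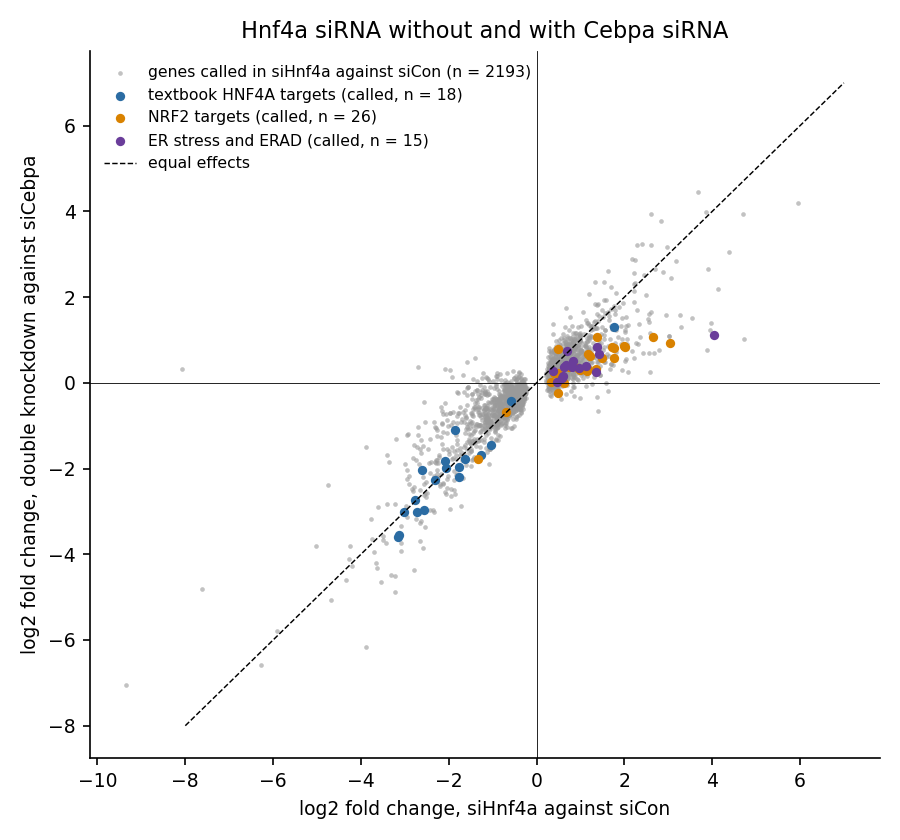
Log2 fold change of the double knockdown against siCebpa (vertical axis) against that of siHnf4a against siCon (horizontal axis) for the 2193 genes called in the latter, with called members of 3 lists coloured and a dashed line where both are equal. HNF4A targets lie near the dashed line, while the 24 NRF2 and 15 endoplasmic reticulum stress genes that rose lie to the right of 0, nearly all below the line. The NRF2 targets that fell, Ftl1 and Hmox1, lie to the left of 0. Genes were plotted because of their call on the horizontal axis, which fixes their side of 0 there and favours larger values on it. All plotted genes that rose had medians of 0.58 on the horizontal and 0.41 on the vertical axis. For those that fell the medians were -0.74 and -0.51.

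The interaction (the effect in siCebpa cells minus that in siCon cells) tests this difference gene by gene. It passed for 13 genes, 0.0861% of those tested, 8 above and 5 below 0 (1488 genes at an unadjusted p under 0.05; 112 and 122 with DESeq2; 300 and 276 with mouse as a block). Of the genes called in siHnf4a it passed for 6. The effect was smaller in siCebpa cells for Derl3 (-2.93 ± 0.42), Cyp2a4 (-1.48 ± 0.17), Ugt2b35 (-1.24 ± 0.16), Cbr1 (-1.03 ± 0.14) and Gsr (-0.86 ± 0.12), with adjusted p from 0.0131 to 0.0313, and larger for Alg2 (1.01 ± 0.15). With mouse as a block the interaction passed for 14 of 35 NRF2 targets and 9 of 41 endoplasmic reticulum stress genes, all below 0, and for 14 of 52 cell cycle genes, all above 0. These stand beside 300 genes above and 276 below 0 among all 15090 in the same fit, and not beside the 0.0861% without the block. Without siCon replicate 2 or 3, siHnf4a replicate 1 or 2, or double knockdown replicate 1 or 2, 0 genes passed edgeR's test (1073 to 1615 at an unadjusted p under 0.05). Cebpa itself was at 33.7, 30.3 and 26.1 CPM in siCebpa and 109, 89 and 84.5 in the double knockdown (1.65 ± 0.13, adjusted p = 5.11e-05), so the 2 settings differ in the depth of the Cebpa knockdown as well, and the part of that in these differences was not tested.

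Set directly against siCebpa, the siHnf4a libraries were higher for 1133 genes and lower for 1309, 16.2% of those tested (2246 and 2466 with mouse as a block; 1596 and 472 in limma on TPM, with a median of all genes of 0.0968 in place of -0.0171). Without siHnf4a replicate 2 edgeR called 637 and 494, and without siCebpa replicate 3 it called 663 and 695. The lower count was 706, 799 or 860 without siCebpa replicate 2, siHnf4a replicate 1 or siHnf4a replicate 3. This comparison shares the siHnf4a libraries with the first, so values are given side by side. Relative to siCebpa, Serpinf2 was at -3.35 ± 0.29, Mup20 at -5.21 ± 0.75 and Apob at -1.52 ± 0.21 (adjusted p = 9.77e-05, 0.00137 and 0.00111). Relative to siCon the same genes were at -3.64, -6.29 and -2.09. Adh7 was higher by 4.29 ± 0.41 (adjusted p = 0.000153) and Gclc by 0.80 ± 0.16 (0.0082). Hspa5 (-0.03 ± 0.10, adjusted p = 0.885) and Derl3 (0.69 ± 0.28, adjusted p = 0.116) did not pass the test between the single knockdowns. With mouse as a block Derl3 did pass it (0.67 ± 0.23, adjusted p = 0.0452).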

How the data were processed

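RNA from 12 cultures of mouse hepatocytes, 4 siRNA groups from each of 3 mice, was sequenced. The deposited estimated counts per gene were made by the authors with Trim Galore 0.6.4 and kallisto 0.4.6 on build GRCm38.p6, per the submitters' processing notes. The deposited TPM values (transcripts-per-million) were made by the authors from the same libraries and are scaled to transcript length and library size. The sources used here give no transcript annotation, strand setting or filter. Of 55385 gene identifiers, 54487 matched the annotation with their version, 657 without it, and 241 have no symbol.

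Counts were rounded to whole numbers, filtered with edgeR's default rule (a floor of 0.42 CPM), scaled by TMM (factors 0.947 to 1.038) and tested with edgeR's quasi-likelihood test in 1 fit of all 12 libraries with 8 residual degrees of freedom, with Benjamini-Hochberg adjustment and a threshold of 0.05. Tools were R 4.3.3, edgeR 4.0.16, limma 3.58.1, DESeq2 1.42.0, Python 3.11.15, numpy 2.4.6, pandas 2.3.3 and matplotlib 3.10.9. On simulated data for siHnf4a against siCon (14721 genes), 61 of 100 genes changed by 1 and 92 of 100 changed by 2 on the log2 scale were called, with 4 false calls among 157. These counts were drawn without a mouse effect, and only genes above a floor of expected counts were changed. The rates need not hold for the real libraries. Library totals, at 22453445 to 25008195 counts, were alike, and counts of libraries of 1 group differed by more than sampling noise (chi-square per degree of freedom 17.2 to 125).

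Libraries with the same number come from the same mouse, per the series' design text. Same-mouse libraries deviated together from their group means (r from 0.16 to 0.68 over 18 pairs), and 12 of 12 libraries correlated best with their own mouse. A fit with mouse as a block is therefore given beside many of the results. Where it is not given, a call or a count can still differ with the block. Other alternatives were DESeq2, RLE size factors, no filter, a stricter filter (1 CPM in 3 libraries), limma-trend on log2(TPM + 1), a fit of the compared groups alone, and leaving out each library.

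The gene lists, markers and members were chosen with earlier results of these data known. Genes were named by a rule: Hnf4a, Cebpa and Alb, the 15 largest rises and 15 largest falls past the threshold among genes of at least 10 CPM with 1 sign in all 3 mice, up to 5 members of each list with the largest change past the threshold, the 10 genes with the highest TPM in siCon, and the listed transcription factors that passed. Not every gene so taken is printed, a few are not reported here, and other list members, the overlapping genes and the genes of the sequence windows were named after their values were seen. Through RefSeq synonyms, the listed names Ctgf, Cyr61, Cf13b and EyeLinc6 were read as Ccn2, Ccn1, F13b and H19, and Cyp2c44, Hjv and Trim16l were not found. Promoters and genomic positions are from RefSeq and the annotation of GRCm38.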

Additional observations from a re-analysis of the deposited data

Results flagged for a closer look

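For the results here the effect of the Hnf4a siRNA differed, by a test of the difference itself, between cells with the Cebpa siRNA and cells with the control siRNA. Of the 13 genes that passed, those called in siHnf4a against siCon and Cebpa are given. The rest were not called in siHnf4a against siCon. Leaving out any 1 of several libraries, named above, left 0 genes past this test. Values are log2 effects in the presence of the Cebpa siRNA minus those with the control siRNA, with means in the order siCon, siHnf4a, siCebpa and double knockdown. The difference was -2.93 for Derl3 (1.03, 17.1, 10.6 and 22.9 CPM). For Cyp2a4 it was -1.48 (138, 567, 326 and 479 CPM), and for Ugt2b35, a glucuronosyltransferase, -1.24 (96.1, 259.9, 216.9 and 248.2 CPM). Cbr1, a carbonyl reductase, had -1.03 (31.2, 79.6, 56.8 and 70.9 CPM) and Gsr, the glutathione reductase, -0.86 (211, 466, 392 and 477 CPM). Alg2, a mannosyltransferase of glycan synthesis, had 1.01 (24.1, 31.1, 12.2 and 31.6 CPM), and its call in siHnf4a against siCon ended in 8 of 14 alternatives. Cebpa itself had 1.50 (192.8, 214.4, 30.0 and 94.2 CPM), so its knockdown was less deep in the double knockdown than in siCebpa. The part of that in the other 6 differences was not tested.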

How the results depend on the processing

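For siHnf4a against siCon, 1093 genes were higher and 1100 lower. With a replicate block for mouse the counts were 2187 and 2346, and with the compared groups alone and the block 1715 and 1991. With 1 library left out they ran from 530 to 1057 and from 550 to 1084. The other alternatives stayed within 1.5 times. For the double knockdown against siCebpa (983 and 976) the block gave 1964 and 2157, the compared groups alone 471 and 370, and limma on TPM 371 lower. With 1 library left out the ranges were 549 to 1031 and 434 to 1095. For the interaction (8 and 5) DESeq2 gave 112 and 122, no filter 13 and 12, the stricter filter 13 higher, and the block 300 and 276. With 1 library left out the ranges were 0 to 10 and 0 to 7. For siHnf4a against siCebpa (1133 and 1309) the block gave 2246 and 2466, the compared groups alone 685 and 637, these with the block 1715 higher, limma on TPM 472 lower and no filter 871 lower. With 1 library left out the ranges were 637 to 1366 and 494 to 1514. The cause of these moves was not tested, except that leaving out a library leaves fewer samples. On TPM the median interaction of all genes was 0.116 in place of -0.0114.

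Of 140 genes named by the rule 131 passed, 87 of them with any 1 library left out and 84 under every alternative run, and 0 changed sign with a call. Of the list counts 201 of 672 moved by more than 1.5 times. Genes under 1 CPM were called least often (4.87%, against 19.0% at 10 to 100 CPM).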

Other observations

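Genes that rose in siHnf4a lay next to each other in 6 runs of at least 4 tested neighbours, and no such run was found among genes that fell. Besides the Gstm and Gsta runs these were the aldo-keto reductases Akr1c14, Akr1c13, Akr1c19 and Akr1c12 (chr13:4049011-4279433, median log2 fold change 1.00), and the class I histocompatibility genes H2-T24, H2-T23 and H2-T22 with Gm6034 (chr17:36005695-36058645, median 1.39). Pxk, Pdhb, Kctd6, Acox2 and Fam107a formed a run of unlike genes (chr14:8098211-8318023, median 0.72), as did Angptl8, Rab3d, Tmem205 and Ccdc159 (chr9:21835510-21935872, median 0.61). Coordinates are on GRCm38. Akr1c and H2-T genes are close copies, between which reads can be shared. No test of such runs was made.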
